A study of Mus musculus with 29 samples.

Results

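The Cyp2a and Cyp2b genes of the mouse encode cytochrome P450 enzymes, and 7 of them were followed here across 4 diets: Cyp2b13, Cyp2b9, Cyp2b10, Cyp2a4, Cyp2a5, Cyp2a22 and Cyp2a12. They were chosen by symbol from the 38124 genes of the series, with earlier results of these livers known, in which Cyp2b13 and Cyp2a4 had stood out between the soy and control diets. That comparison is therefore given below as a description without a test. Liver RNA came from male C57BL/6 mice, an inbred laboratory strain, bought at 14 weeks and assigned to diets at 4 months of age. Calories were restricted on the soy, fish and lard diets to 60% of ad libitum intake, or 8.6 kcal daily, while control mice were fed 95%, or 13.6 kcal daily. The labels name the 3 restricted diets soy, fish and lard, and the series title concerns omega-3 fatty acids, for which fish oil is the usual source. Liver was measured in 4 soy, 4 fish, 4 lard and 3 control mice, and whole hindlimb muscle in 3 soy, 3 fish, 4 lard and 4 control mice. The labels do not give the fat source of the control diet, so intake and fat source cannot be told apart in a comparison with control.

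Cytochrome P450 enzymes of the CYP2 families hydroxylate steroids, drugs and plant compounds in the endoplasmic reticulum of hepatocytes, with electrons supplied by the reductase Por. Cyp2b13, Cyp2b9 and Cyp2a4 are known as genes with higher expression in female than in male mouse liver, a difference set by the pattern of growth hormone secretion. Cyp2b10 is the classical target of the xenobiotic receptor CAR (Nr1i3), Cyp2a5 hydroxylates coumarin and nicotine, and Cyp2a4 hydroxylates testosterone.

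The 7 genes lie on chromosome 7 (GRCm38) within 1139 kb, in the order Cyp2b10 (25897620 to 25926624), Cyp2b13 (26061495 to 26096196), Cyp2b9 (26173411 to 26210661), Cyp2a4 (26307190 to 26315088), Cyp2a5 (26835305 to 26843548), Cyp2a22 (26931631 to 26939386) and Cyp2a12 (27029090 to 27036807). Cyp2a22 is on the minus strand and the others are on the plus strand. In the tables they are ENSMUSG00000030483, ENSMUSG00000040583, ENSMUSG00000040660, ENSMUSG00000074254, ENSMUSG00000005547, ENSMUSG00000091867 and ENSMUSG00000060407, in the same order. They form 3 pairs of close copies. The coding sequences of Cyp2a4 and Cyp2a5 were 98.4% identical, those of Cyp2a22 and Cyp2a12 97.0%, and those of Cyp2b13 and Cyp2b9 92.7%, from the GENCODE M21 transcripts. The 250 bases upstream of the annotated start were 99.2% identical between Cyp2b13 and Cyp2b9, 98.4% between Cyp2a4 and Cyp2a5, and 90.4% between Cyp2a22 and Cyp2a12 (RefSeq, GRCm38.p6, all 7 genes matched). The upstream sequences of the first pair are shown because Cyp2b13 and Cyp2b9 differed widely in their levels in control livers. They lie on the plus strand at chr7:26061245-26061494 and chr7:26173159-26173408, and capitals mark the bases that differ, C48T and T104C, counted from 1 at the 5′ end with the base of Cyp2b13 first.
Cyp2b13: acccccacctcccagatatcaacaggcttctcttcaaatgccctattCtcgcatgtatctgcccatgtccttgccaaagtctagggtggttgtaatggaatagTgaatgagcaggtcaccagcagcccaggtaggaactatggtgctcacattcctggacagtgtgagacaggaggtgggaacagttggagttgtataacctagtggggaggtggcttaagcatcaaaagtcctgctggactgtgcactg
Cyp2b9: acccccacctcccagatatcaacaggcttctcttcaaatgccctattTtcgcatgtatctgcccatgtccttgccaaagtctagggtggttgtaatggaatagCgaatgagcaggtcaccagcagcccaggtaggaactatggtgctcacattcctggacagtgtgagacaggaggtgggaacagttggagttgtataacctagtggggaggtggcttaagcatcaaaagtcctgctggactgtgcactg
The second of these bases lies 147 bases before the start, a few bases upstream of an AGGTCA motif, the core sequence bound by nuclear receptors, which both genes carry 138 bases before the start. AGGTCA occurs on either strand in 16.3% of all promoters of the same length (250 bases before to 50 after the start). It was also found in the windows of Cyp2a4 and Cyp2a5, 30 and 29 bases after the start. The windows of Cyp2b10, Cyp2a22 and Cyp2a12 held none. Whether the differing bases or the motif bear on the levels of Cyp2b13 and Cyp2b9 was not tested.

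The upstream sequences of Cyp2a4 and Cyp2a5 are shown for the same reason. They lie on the plus strand at chr7:26306942-26307191 and chr7:26835089-26835338, and capitals mark bases that differ or have no partner in the alignment, in which the windows are shifted by 1 base.
Cyp2a4: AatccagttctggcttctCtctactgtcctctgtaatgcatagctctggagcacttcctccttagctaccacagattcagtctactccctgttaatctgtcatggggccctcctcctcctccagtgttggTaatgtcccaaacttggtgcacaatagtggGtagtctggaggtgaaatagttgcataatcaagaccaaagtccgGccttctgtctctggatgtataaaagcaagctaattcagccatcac
Cyp2a5: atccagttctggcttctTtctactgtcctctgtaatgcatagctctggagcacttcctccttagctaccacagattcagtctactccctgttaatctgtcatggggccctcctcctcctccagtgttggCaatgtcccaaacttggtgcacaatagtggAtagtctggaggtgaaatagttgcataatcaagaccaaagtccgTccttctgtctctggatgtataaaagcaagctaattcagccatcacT
Both hold TATAAA, the TATA box, at 28 bases before the start in Cyp2a4 and 29 in Cyp2a5. TATAAA was found in the 4 Cyp2a promoters and in none of the 3 Cyp2b promoters, against 13.6% of all promoters. GTTAAT, a core of the HNF1 motif, was found in the promoters of Cyp2a4 and Cyp2a5 and in 7.1% of all promoters. TTCNNNGAA, the motif bound by STAT proteins, was found in none of the 7 windows, against 8.3% of all promoters. Each motif was searched on both strands, and none of the 4 motifs contains another. Only these sequences were counted, so variant forms may be present, and the 4 Cyp2a promoters include close copies. The part of these motifs and differing bases in the levels was not tested.

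The coding sequences of Cyp2a4 and Cyp2a5 differ at 23 of 1482 bases. A stretch of coding exon 4 is shown because exchanging codon 209 alone is known to switch the enzyme between the steroid hydroxylase activity of Cyp2a4 and the coumarin hydroxylase activity of Cyp2a5, and because such near identity bears on how reads are counted. It covers coding bases 580 to 654, at chr7:26309014-26309088 in Cyp2a4 and chr7:26837177-26837251 in Cyp2a5 (plus strand, GRCm38), and capitals mark the 3 bases that differ.
Cyp2a4: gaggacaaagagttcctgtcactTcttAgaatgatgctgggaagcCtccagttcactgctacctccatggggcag
Cyp2a5: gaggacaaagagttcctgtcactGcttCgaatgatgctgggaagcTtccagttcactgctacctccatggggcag
The difference in codon 209 is C625T, counted from the A of the start codon with the base of Cyp2a4 first. Despite this likeness, 86.2% to 89.8% of the exon reads of Cyp2a4 and 89.3% to 90.2% of those of Cyp2a5 matched uniquely in the 15 livers. The unique share was at least 93.8% for Cyp2b13, 97.8% for Cyp2b9, 92.6% for Cyp2a22 and 92.7% for Cyp2a12, and every read of Cyp2b10 was unique.

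The 29 libraries held 11315231 to 27106865 exon reads. Of the livers, soy mice 1073 and 1159 stood apart from the other 13: 5.47% and 5.41% of their gene reads lay outside exons, against 7.90% to 8.92%. Fold changes of the soy diet are given with and without them. Fish liver 1123 held 3253 CPM of summed skeletal muscle markers, against 187 to 394 CPM in the other 14 livers, and 12 of 12 such genes had a positive log2 fold change over control in soy, fish and lard livers alike (medians 0.59, 2.15 and 0.33), with 0 past the edgeR threshold in fish or lard livers. Without that liver Cyp2b13 kept its call in fish livers, at an edgeR adjusted p of 0.0196. Markers of hepatocytes summed to 187745 to 206352 CPM in soy, 163000 to 186500 CPM in fish, 174166 to 200458 CPM in lard and 144875 to 159495 CPM in control livers, so this sum was higher in every restricted liver than in any control liver. In this sum the albumin gene Alb made up 67003 of 144875 CPM in control mouse 1095 and 95354 of 172661 CPM in fish mouse 1124. The separation is therefore not shown for the other markers. The 18 genes of the sum had median log2 fold changes of 0.45 in soy, 0.06 in fish and 0.14 in lard livers. Of these 18, edgeR's quasi-likelihood test called 0 in fish livers. In lard livers it called 1, the tyrosine aminotransferase gene Tat, which rose by 1.43 ± 0.29 (log2 fold change ± SE, adjusted p = 0.0405). In bulk tissue, fewer cells of a type and less RNA per cell cannot be told apart, and the part of these shifts in the results below was not tested. The labels call the samples separate mice. No library matched another of its group within counting error (chi-square per degree of freedom of at least 10.3 in 39 pairs).

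Cyp2b13 was nearly silent in control livers and abundant in restricted livers. It reached 324, 107, 34.6 and 330 reads per 1e6 exon reads of the library (CPM) in soy livers, 91.0, 199, 390 and 41.5 CPM in fish livers and 130, 148, 31.3 and 205 CPM in lard livers, against 1.70, 0.21 and 1.03 CPM in control livers. The 3 control values rest on 24, 3 and 16 reads, and the lowest restricted liver had 455 reads. No restricted liver overlapped the controls, while among the 12 restricted livers the highest value was 12.5 times the lowest. Cyp2b13 rose in fish livers by 7.48 ± 1.16 (log2 fold change ± SE, 178-fold, edgeR adjusted p = 0.00865) and in lard livers by 7.14 ± 1.15 (141-fold, adjusted p = 0.0115). These tests ran over all 12788 genes that passed the filter on low reads, and they share the control livers with the soy comparison, in which the gene had been noticed. In soy livers the difference was 7.84 ± 1.18, and 7.60 without soy mice 1073 and 1159. The calls depended on the control livers: without control mouse 1120 the adjusted p was 0.081 in fish and 0.0675 in lard livers, and without control mouse 1121 it was 0.0811 in fish and 0.0677 in lard livers. The log2 fold change stayed between 6.69 and 8.04 in these 2 comparisons when any single liver was left out, with 6.76 in fish livers without fish mouse 1124.

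Reads of Cyp2b13 outside its exons, that is total gene reads less exon reads, gave another readout of the gene. They numbered 1951, 358, 444 and 472 in soy, 409, 1231, 1072 and 495 in fish and 638, 922, 230 and 702 in lard livers, against 59, 14 and 28 in control livers. Scaled per 1e6 exon reads of the library, this was 15.8 to 93.1 in the 12 restricted livers. In control livers it was 0.961 to 4.18, again without overlap. In the control livers these reads outnumbered the exon reads (24, 3 and 16). In the muscle of control mouse 1095, with 10 exon reads, they reached 2.15 per 1e6, which is within the range of control livers. The fold change of these reads was not tested. Cyp2b9 had 23.5 to 404 such reads per 1e6 in restricted livers and 36.4 to 103 in control livers, and these ranges overlapped.

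**Figure D1:**
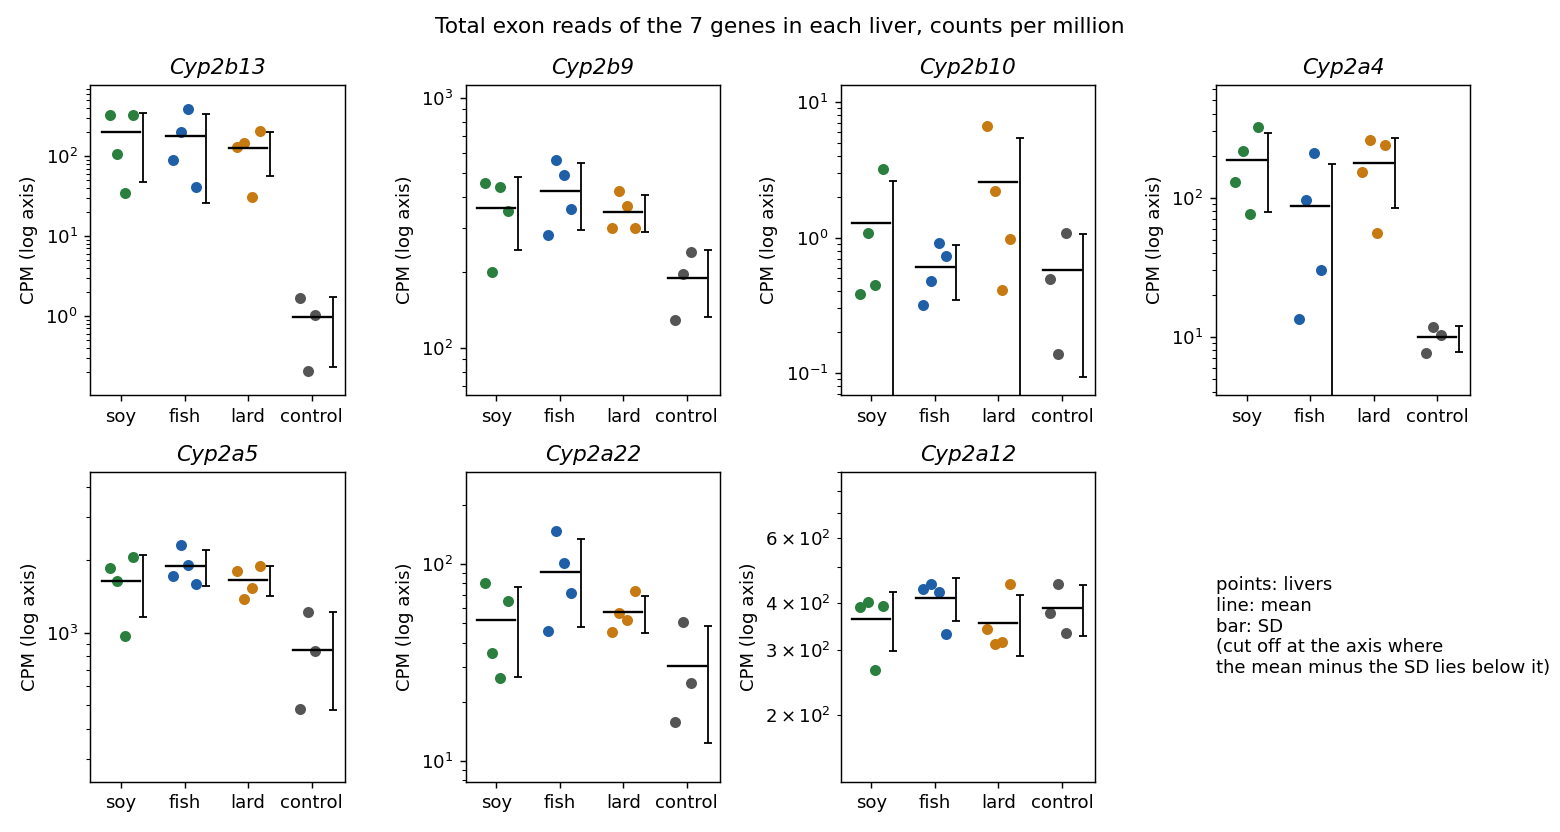
CPM (log axis) of the 7 genes in each liver by diet; points are livers, lines are means and bars are SD. Cyp2b13 lies between 31.3 and 390 CPM in the 12 restricted livers and at 1.70 CPM or below in control livers, while Cyp2a12 lies between 265 and 452 CPM in all 15 livers.

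Cyp2b9, the closest copy of Cyp2b13, was expressed in every liver. It had 458, 201, 440 and 353 CPM in soy, 281, 563, 489 and 358 CPM in fish and 301, 424, 367 and 302 CPM in lard livers, against 129, 198 and 241 CPM in control livers. Fish and lard livers lay above all controls, and soy mouse 1073 lay within their range. The log2 fold change was 1.10 ± 0.29 in fish (adjusted p = 0.157) and 0.96 ± 0.29 in lard livers (adjusted p = 0.181), which did not pass the threshold of 0.05 with edgeR. It passed with the DESeq2 Wald test, at adjusted p = 0.0171 and 0.0454. In soy livers it was 1.06 ± 0.29, and 1.29 without soy mice 1073 and 1159.

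Reads of Cyp2b13 amounted to a median of 62.1% of those of Cyp2b9 in soy livers, 33.8% in fish and 39.0% in lard livers, against 0.425% in control livers. Both genes have an exon length of 1876 bases in the tables, so this is also their ratio per length. It ranged from 7.86% to 93.4% over the restricted livers and from 0.104% to 1.32% over the control livers, with no overlap.

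Cyp2b10 was barely detected. It had 0.38, 1.07, 0.45 and 3.24 CPM in soy, 0.32, 0.48, 0.91 and 0.73 CPM in fish and 6.72, 2.21, 0.41 and 0.97 CPM in lard livers, against 0.50, 0.14 and 1.09 CPM in control livers, from 2 to 143 reads per liver. All 4 diets overlapped. Its log2 fold change over control was 0.04 ± 1.04 in fish (95% interval -2.003 to 2.08) and 2.30 ± 0.94 in lard livers (adjusted p = 0.396). The lard value was 1.13 without lard mouse 1100, which had 143 reads, and 3.18 without control mouse 1121. In soy livers it was 1.32 ± 0.97, and -0.44 without soy mice 1073 and 1159.

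Cyp2a4 was the other gene with a wide change. It had 130, 215, 76.0 and 323 CPM in soy, 13.4, 95.7, 208 and 30.4 CPM in fish and 153, 260, 56.1 and 240 CPM in lard livers, against 7.65, 11.8 and 10.4 CPM in control livers. No restricted liver fell within the range of the controls, but fish mouse 1067 was close to it. Cyp2a4 rose in lard livers by 4.23 ± 0.88 (18.8-fold, adjusted p = 0.0465), a call that was lost without any of 8 single livers (1 soy, 1 fish, 3 lard and all 3 control livers), with adjusted p up to 0.196, although the log2 fold change stayed between 4.00 and 4.52. In fish livers it was 3.06 ± 0.83, which missed the threshold with edgeR (adjusted p = 0.178) and passed it with DESeq2 (0.0168). Without fish mouse 1124 the value in fish livers was 2.16, and without any other single liver it lay between 2.86 and 3.41. In soy livers it was 4.40 ± 0.88, and 3.43 without soy mice 1073 and 1159.

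Cyp2a5 was the most abundant of the 7 genes by RPKM, the deposited value scaled by exon length and library size. It had 1851, 1635, 970 and 2049 CPM in soy, 1706, 2309, 1892 and 1590 CPM in fish and 1801, 1374, 1532 and 1874 CPM in lard livers, against 484, 1218 and 840 CPM in control livers. Fish and lard livers again lay above all controls, and soy mouse 1141 lay within their range. The log2 fold change was 1.08 ± 0.31 in fish (adjusted p = 0.225), 1.03 ± 0.31 in lard (adjusted p = 0.182) and 1.08 ± 0.31 in soy livers, or 0.78 there without soy mice 1073 and 1159. With DESeq2 the first 2 passed, at adjusted p = 0.044 and 0.0443. Set against albumin, a general hepatocyte transcript, there were 9.10 to 17.2 Cyp2a5 reads per 1000 Alb reads in soy, 15.1 to 26.2 in fish and 12.2 to 18.5 in lard livers, against 7.23 to 14.5 in control livers. On this scale the fish livers lay above all controls, and the soy and lard livers overlapped them. Alb itself had 98660 to 119313 CPM in soy, 81171 to 105333 CPM in fish and 96504 to 114206 CPM in lard livers. Its range in control livers was 67003 to 84004 CPM, below every soy and lard liver and overlapping fish livers. How far the level of Alb shapes this ratio was not tested. Markers of pericentral hepatocytes, the zone in which Cyp2a5 is known to be expressed, summed to 12608 to 15373 CPM in control livers. The sum was 11577 to 15144 CPM in soy, 16022 to 18651 CPM in fish and 12562 to 19649 CPM in lard livers. Only the fish livers lay above all controls. Of the 14 markers tested, 0 passed with edgeR in fish or lard livers, and the part of such shifts in the result was not tested.

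Reads of Cyp2a4 amounted to a median of 10.5% of those of Cyp2a5 in soy, 3.03% in fish and 10.6% in lard livers, against 1.24% in control livers. The ratio of fish mouse 1067, 0.783%, was below the lowest control, 0.970%, and every other restricted liver was above the highest control, 1.58%. The share of Cyp2a4 reads that stem from Cyp2a5, which would weigh most where Cyp2a4 is low, was not tested.

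Cyp2a22 and Cyp2a12 are less studied genes at the far end of the cluster. Cyp2a22 had 80.3, 35.4, 26.4 and 64.9 CPM in soy, 45.8, 147, 100.8 and 71.3 CPM in fish and 45.5, 56.5, 51.9 and 73.4 CPM in lard livers, against 15.7, 50.8 and 25.1 CPM in control livers. Each restricted diet overlapped the controls. Its log2 fold change was 1.504 ± 0.47 in fish (adjusted p = 0.298), 0.96 ± 0.46 in lard (adjusted p = 0.507) and 0.89 ± 0.46 in soy livers, or 0.85 there without soy mice 1073 and 1159. Without control mouse 1120, the highest control, it was 1.52 in soy, 2.13 in fish and 1.59 in lard livers. Cyp2a12, which hydroxylates steroids, had 392, 403, 265 and 393 CPM in soy, 438, 452, 429 and 332 CPM in fish and 341, 312, 315 and 452 CPM in lard livers, against 378, 452 and 333 CPM in control livers. Its log2 fold change was 0.04 ± 0.19 in fish (95% interval -0.34 to 0.41), -0.04 ± 0.19 in lard (95% interval -0.41 to 0.34) and 0.06 ± 0.19 in soy livers (-0.18 without soy mice 1073 and 1159), with a sign that turned when single livers were left out. A 2-fold change in either direction lies outside both intervals.

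**Figure D2:**
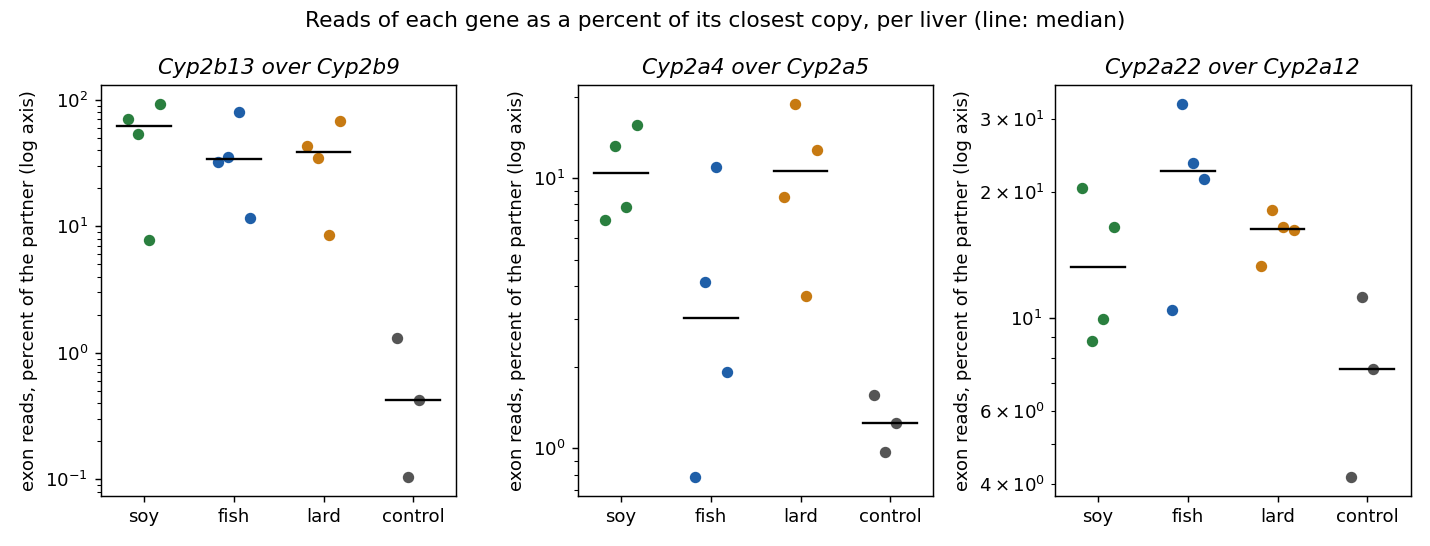
Exon reads of one gene of each pair of close copies as a percent of the other (log axis), per liver and diet, with the median as a line. Cyp2b13 lies at 7.86% to 93.4% of Cyp2b9 in restricted livers and at 1.32% or below in control livers; the other pairs overlap in at least 1 diet.

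In fish livers 1 of the 7 genes rose past the threshold (Cyp2b13), where 0.0782% of all tested genes did so. In lard livers 2 of 7 rose (Cyp2b13 and Cyp2a4), against 0.18% of all genes. DESeq2 called 4 of the 7 in each of these comparisons: Cyp2b13, Cyp2a4, Cyp2b9 and Cyp2a5. It called 0.422% of all genes as higher in fish livers and 0.813% in lard livers. Cyp2b13 and Cyp2a4 were higher in soy than in control livers without overlap of the groups, as 2.78% of all tested genes were. Since these genes had drawn attention in those same livers, nothing is read from that count. Without soy mice 1073 and 1159 it also held for Cyp2b9, and for 7.99% of all genes. Groups did not overlap either for 4 genes in fish livers, against 7.17% of all genes, and for 4 in lard livers, against 3.32%: Cyp2b13, Cyp2a4, Cyp2b9 and Cyp2a5 in each. These 3 comparisons share the 3 control livers. The median log2 fold change of the 7 genes was 1.08 in soy (0.85 without soy mice 1073 and 1159), 1.10 in fish and 1.03 in lard livers. The median of all genes was 0.0035, 0.011 and 0.0046. Like the soy count, the soy median is a description from which nothing is read. The fish and lard medians share its control livers and are not independent of the choice of genes.

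**Figure D3:**
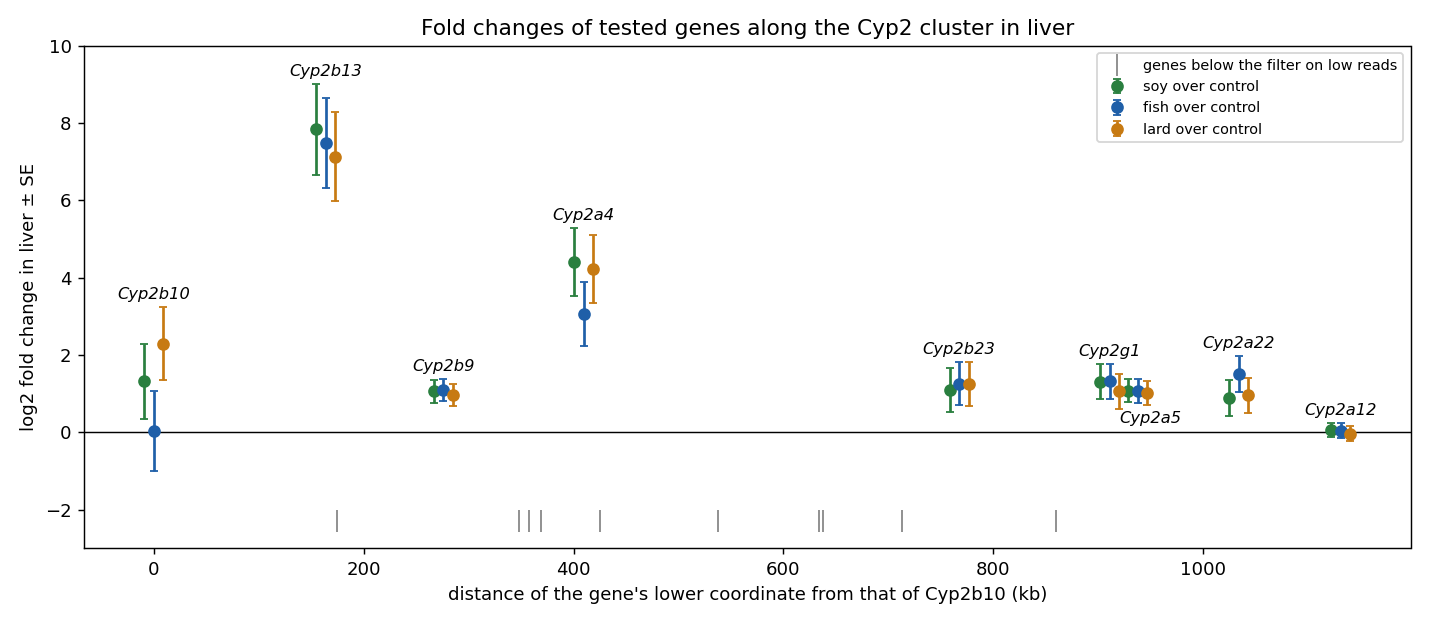
Log2 fold change over control in liver (± SE) for the 9 tested genes of the interval, against the distance in kb along chromosome 7; ticks mark the 10 genes below the filter on low reads. Cyp2b13 (7.14 to 7.84) and Cyp2a4 (3.06 to 4.40) stand above neighbours at 1.504 or less, apart from Cyp2b10 in lard livers (2.30).

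The change along the cluster was uneven. Cyp2b9 lies between Cyp2b13 and Cyp2a4 and had log2 fold changes of 0.96 to 1.10. Of the 19 annotated genes in the interval 9 passed the filter, and only Cyp2b23 and Cyp2g1 of these were outside the 7. Cyp2b23, at a mean of 0.639 CPM, had log2 fold changes of 1.10 ± 0.57 in soy, 1.26 ± 0.56 in fish and 1.25 ± 0.57 in lard livers. Cyp2g1, best known from olfactory mucosa, had 1.31 ± 0.45, 1.32 ± 0.45 and 1.06 ± 0.45 at a mean of 3.24 CPM. The genes below the filter include receptors of the vomeronasal family and Nlrp genes of the oocyte, each at 0.033 CPM or less on average.

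Per length, the order of the genes differed between restricted and control livers. In control livers the mean RPKM was 383 for Cyp2a5, 215 for Cyp2a12, 92.6 for Cyp2b9, 12.6 for Cyp2a22, 5.32 for Cyp2a4, 0.478 for Cyp2b13 and 0.271 for Cyp2b10. The ranges of Cyp2a5 and Cyp2a12 overlapped in control livers, and so did those of Cyp2b13 and Cyp2b10. In fish livers it was 844 for Cyp2a5, 228 for Cyp2a12, 206 for Cyp2b9, 88.2 for Cyp2b13, 46.4 for Cyp2a4, 37.6 for Cyp2a22 and 0.288 for Cyp2b10, and neighbours from Cyp2a12 to Cyp2a22 overlapped. In lard livers Cyp2a4, at 94.6 RPKM, stood above Cyp2b13, at 62.8 RPKM, with overlapping ranges. The summed RPKM of the 7 genes was 1353 ± 373 in soy, 1451 ± 321 in fish and 1291 ± 167 in lard livers, against 709 ± 212 in control livers (SD, n = 4, 4, 4 and 3). It was 867 and 1540 in the soy livers other than mice 1073 and 1159. Cyp2a5 contributed 54.8% of that sum in soy, 58.9% in fish and 57.6% in lard livers, against 52.4% in control livers. The share of Cyp2a12 was 15.5%, 16.1% and 15.2% in soy, fish and lard livers, against 31.7% in control livers. In the soy livers other than mice 1073 and 1159, Cyp2a5 contributed 50.4% and 54.3% and Cyp2a12 contributed 14.1% and 16.9%.

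Among the restricted diets, none of the 7 genes passed the threshold. Between fish and lard livers, a comparison that uses soy and control livers only for the estimate of the spread, Cyp2a4 differed by -1.17 ± 0.68 (95% interval -2.50 to 0.16) and Cyp2b13 by 0.34 ± 0.71 (-1.06 to 1.74). Without fish mouse 1124 these values were -2.06 for Cyp2a4 and -0.36 for Cyp2b13. Cyp2b10 differed by -2.26 ± 0.83 (adjusted p = 0.383), and by -1.08 without lard mouse 1100. It was the 1 gene of the 7 with an unadjusted p under 0.05, as 9.98% of all genes were. Cyp2a5, Cyp2a12 and Cyp2b9 differed by 0.05 to 0.14, with intervals that lie between -0.50 and 0.65, and Cyp2a22 by 0.55 ± 0.41. DESeq2 also called none. In this comparison edgeR called 0.203% and DESeq2 1.28% of all genes. Between fish and soy livers edgeR and DESeq2 again called 0 of 7, while edgeR called 0.0938% and DESeq2 6.36% of all genes. None of the 7 had an unadjusted edgeR p under 0.05, where 23.1% of all genes did. There Cyp2a4 differed by -1.34 ± 0.68 (adjusted p = 0.242) and Cyp2b10 by -1.28 ± 0.87. Without soy mice 1073 and 1159 the values were -0.37 for Cyp2a4 and 0.47 for Cyp2b10, and without fish mouse 1124 it was -2.24 for Cyp2a4. Between lard and soy livers edgeR and DESeq2 called 0 of 7, while edgeR called 0.0% and DESeq2 1.18% of all genes. None of the 7 had an unadjusted edgeR p under 0.05, where 17.3% of all genes did. There Cyp2a4 differed by -0.17 ± 0.67 and Cyp2b10 by 0.98 ± 0.77, and without soy mice 1073 and 1159 by 0.80 and 2.73. For both Cyp2b13 and Cyp2a4, a 2-fold difference in at least 1 direction lies within the interval in each of the 3 comparisons.

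The restricted livers did not vary alike in all 7 genes. Over the 12 restricted livers, Pearson's r of log2 CPM of Cyp2b13 was 0.70 with Cyp2a12, 0.69 with Cyp2a5, 0.64 with Cyp2a4, 0.60 with Cyp2a22, 0.35 with Cyp2b10 and 0.22 with Cyp2b9. Between Cyp2a4 and Cyp2a5 it was 0.37. Cyp2a5 and Cyp2a12 had r = 0.86 and Cyp2a5 and Cyp2a22 had r = 0.69 over the same livers. These are descriptions over livers of 3 diets that share library depth and include soy mice 1073 and 1159.

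**Figure D4:**
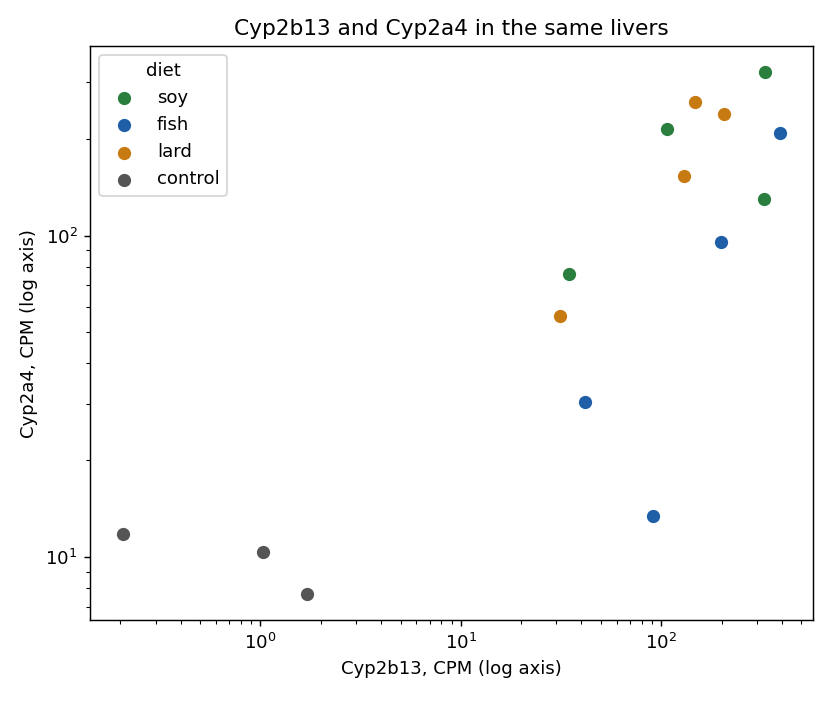
Cyp2a4 against Cyp2b13 in each of the 15 livers, in CPM on log axes, coloured by diet. The 12 restricted livers lie at 31.3 CPM of Cyp2b13 and above, fish mouse 1067 has 91.0 CPM of Cyp2b13 with 13.4 CPM of Cyp2a4, and the 3 control livers lie at 1.70 CPM or below.

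The genes whose log2 CPM was most like each of the 7 over the 15 livers were taken from 9170 genes whose mean was 5 CPM or higher, as a description that includes the difference between diets. For Cyp2a4 they included Hgsnat (r = 0.91, and 0.78 over the 12 restricted livers) and Capn10 (0.89 and 0.82). For Cyp2b13 they included Ldb1 (0.93 and 0.52) and Fam177a (0.91 and 0.56). For Cyp2b9 they were Trim24 (0.91 and 0.72), Cyp2c38 (0.87 and 0.76) and Postn (0.84 and 0.41). For Cyp2a5 they were Postn (0.88 and 0.64), the carboxylesterase Ces1g (0.86 and 0.77) and the phospholipase Pla2g16 (0.84 and 0.65). Cyp2a22 had Ces1g (0.85 and 0.73), Ugt1a1 (0.83 and 0.71) and Tmem185a (0.81 and 0.60). Of the exon reads of Ugt1a1, which shares exons with other Ugt1a genes, 3.49% to 4.04% matched uniquely. Cyp2a12 had Bin3 (0.83 and 0.84), R3hcc1 (0.82 and 0.82) and Top1mt (0.82 and 0.81), and Cyp2b10 had Phf11c (0.74 and 0.79), Ppp2ca (0.74 and 0.75) and Otud1 (0.74 and 0.75).

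The receptors and regulators known to act on these genes gave no call in fish or lard livers. Of 22 tested xenobiotic receptors and partners 0 passed in either direction in either comparison, with a median log2 fold change of -0.06 in fish and -0.04 in lard livers. Nr1i3, the receptor CAR, had 609 ± 63.9 CPM in fish and 432 ± 53.8 CPM in lard livers, against 534 ± 226 CPM in control livers (SD, n = 4, 4 and 3). In these groups 50.9% to 52.9% of its reads matched uniquely. Nr1i2, the receptor PXR, had 131 ± 8.77 CPM in fish and 123 ± 14.8 CPM in lard livers, against 120 ± 26.6 CPM in control livers. Por had 815 ± 52.7 CPM in fish and 898 ± 62.7 CPM in lard livers, against 569 ± 236 CPM in control livers (adjusted p = 0.6249 and 0.225). With it, 0 of 16 genes of electron supply and haem synthesis passed. Hnf4a, a hepatocyte transcription factor, had log2 fold changes of -0.03 ± 0.24 in fish and 0.18 ± 0.24 in lard livers.

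Of 18 tested genes of growth hormone signalling and sex-biased regulation, 0 passed in fish or lard livers. Cux2, a repressor known from female mouse liver, had 18.4 ± 18.3 CPM in fish and 14.8 ± 11.4 CPM in lard livers, against 0.543 ± 0.0276 CPM in control livers. Soy livers, for which no test is given, had 34.5 ± 15.9 CPM of this gene. Its log2 fold change was 4.999 ± 1.12 in fish (adjusted p = 0.0687) and 4.84 ± 1.12 in lard livers (adjusted p = 0.0726), and every fish and lard liver, at 2.19 CPM or more, lay above the highest control, at 0.567 CPM. Bcl6, a repressor known from male liver, had -1.31 ± 0.50 in fish (adjusted p = 0.409) and -1.76 ± 0.51 in lard livers (adjusted p = 0.158). Stat5b, which carries the growth hormone signal, had -0.18 ± 0.14 and -0.12 ± 0.14. Onecut1 had 0.21 ± 0.87 and 1.32 ± 0.90, but 2.19% to 2.83% of its reads matched uniquely, so its value is uncertain.

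Genes known for higher expression in female liver, a list that holds Cux2 but none of the 7, gave 2 rises among 27 tested in fish livers and 3 in lard livers, at a median log2 fold change of 0.57 and 0.68. Among these, the sulfotransferase Sult2a7 rose in fish livers by 4.23 ± 0.65 (adjusted p = 0.00839), and Fmo2 and Sult3a1 rose in lard livers by 2.03 ± 0.38 (adjusted p = 0.0275) and 5.15 ± 1.03 (adjusted p = 0.0394). Over all 12788 tested genes, 39 fell in fish and 42 in lard livers. Genes known for higher expression in male liver gave 4 falls among 34 in fish and 7 in lard livers, at medians of -1.10 and -1.65. Mup15, Mup17 and Mup14, which encode urinary pheromone-binding proteins, led both, with Mup15 at 1.32 ± 1.63 CPM in fish and 1.67 ± 1.46 CPM in lard livers, against 204 ± 115 CPM in control livers (adjusted p = 0.00123 and 0.00287). These Mup genes are near-identical copies, 4.71% to 23.3% of whose reads matched uniquely in these groups, so their separate values are uncertain.

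Among other targets of CAR and PXR, 0 of 26 passed in fish or lard livers against control. Between fish and lard livers 2 of 26 were higher, the steroid hydroxylase Cyp3a11 by 1.21 ± 0.20 (2363 ± 191 CPM in fish and 928 ± 176 CPM in lard livers, adjusted p = 0.0328) and the transporter Abcc3 by 0.92 ± 0.16 (adjusted p = 0.0354). Of 26 other Cyp1, Cyp2 and Cyp17 genes, 0 passed in fish livers and Cyp2c68 rose in lard livers by 0.76 ± 0.15 (adjusted p = 0.0394), with 76.0% of its reads unique. Of 19 steroid-converting enzymes 2 fell in each comparison. These were Cyp46a1, a cholesterol hydroxylase, by -1.69 ± 0.19 in fish (adjusted p = 0.00123) and -1.85 ± 0.19 in lard livers (adjusted p = 0.000925), and Srd5a1, steroid 5-alpha reductase, by -1.98 ± 0.27 (adjusted p = 0.00304) and -1.75 ± 0.27 (adjusted p = 0.00908).

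**Figure D5:**
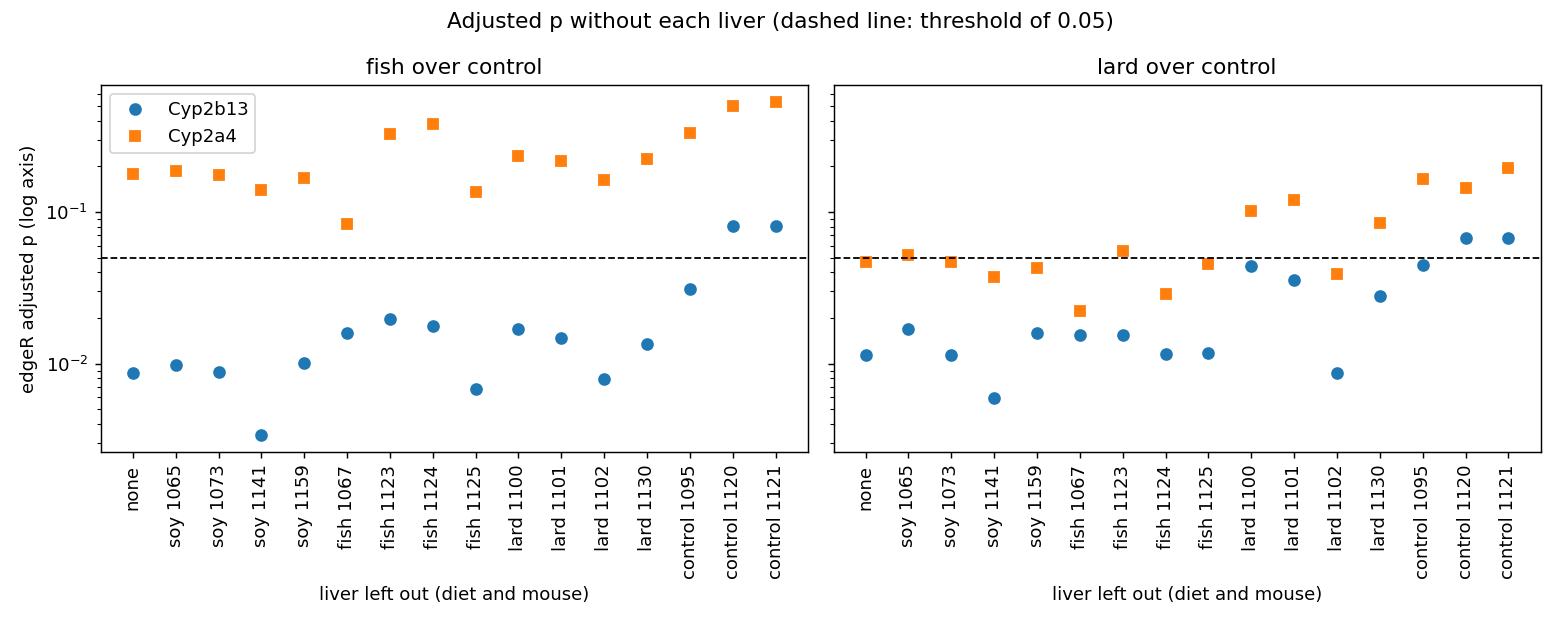
Adjusted p (edgeR, log axis) of Cyp2b13 and Cyp2a4 over control in fish and lard livers, with all livers and without each single one; the dashed line is 0.05. Cyp2b13 crosses the line without control mouse 1120 or 1121, and Cyp2a4 in lard livers lies on both sides of it, between 0.0222 and 0.196.

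In hindlimb muscle the 7 genes were at trace levels. Cyp2a5 had 1.77 to 5.77 CPM over the 14 muscles, Cyp2a12 0.245 to 2.02 CPM and Cyp2b9 0.223 to 2.45 CPM, and these 3 passed the filter. Cyp2a4, Cyp2a22 and Cyp2b13 had at most 7, 3 and 11 reads in any muscle. Cyp2b10 was at 0 in 10 of 14 muscles and had 21 reads in 1 fish muscle. Hepatocyte markers summed to 361 to 1063 CPM in muscle, and Cyp2a5 had 10.98 to 19.8 reads per 1000 Alb reads there, within the 7.23 to 26.2 found in liver. None of the 3 tested genes passed in any of the 6 comparisons of diets with edgeR or DESeq2, where edgeR called 0.00763% of all genes in at least 1 comparison. Cyp2b9 had an unadjusted edgeR p of 0.0453 between fish and soy muscle (adjusted p = 0.9997), the 1 such value under 0.05. In that comparison 2.20% of all genes had an unadjusted p under 0.05.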

How the data were processed

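Per the labels' protocols, liver and muscle RNA was extracted with Trizol and made into TruSeq libraries. GRCm38 and FastQC stand in the submitters' processing notes. Aligner, counter, annotation release and strandedness: not given in the sources used here. The series text says that 1 control liver and 1 fish muscle were set aside for their clustering and lower RNA quality. Per the file headers, the deposited tables hold, for each gene and library, read counts (exonic, uniquely matched exonic, and over the whole gene) and RPKM computed by the authors. Libraries present in more than 1 table had the same values in each (0 of 116 column comparisons differed). Of 38124 genes 36345 were paired with GENCODE M21 symbols.

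The 7 genes, the gene lists and the tests were chosen with earlier results of these data known. CPM are exon reads per 1e6 exon reads. Counts were tested with edgeR 4.0.16 in R 4.3.3: TMM scaling, filterByExpr with a minimum count of 10, a quasi-likelihood F test with the 4 diets of each tissue fitted together, and Benjamini-Hochberg adjustment over all genes, with a threshold of 0.05. The procedure was tested on simulated liver counts. These held no livers that stand apart and no genes nearly silent in control livers alone, so such cases are not covered. SE is the size of the log2 fold change divided by the square root of F, and 95% intervals are 1.96 SE on each side. This normal multiplier ignores the few livers, so the intervals are narrower than the F test implies. For Cyp2a4 between fish and soy livers the interval was -2.68 to -0.011, while the edgeR F test gave an unadjusted p of 0.0667. The text names all 7 genes, at most 3 genes per list and comparison past the threshold by smallest p, 8 regulators, and for each of the 7 the 3 genes of highest Pearson r of log2 CPM with a prior count of 2. One gene that this rule names is not reported here. Cyp2b23 and Cyp2g1 were named for their position. The log2 CPM behind every Pearson r were TMM-scaled, unlike the CPM given as levels. Alternatives were DESeq2 1.42.0 (its size factors, and its Wald test), no filter on low reads, a minimum mean of 5 CPM, unique exon reads, the compared diets fitted alone, library numbers as a block, and leaving out livers. Reads are not independent molecules, so a read count limits precision more than its counting error shows.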

Additional observations from a re-analysis of the deposited data

Results flagged for a closer look

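One value stood apart within its group: Cyp2a12 in soy mouse 1141 had 265 CPM, while the other 3 soy livers had 392 CPM or more, and the gap took 0.922 of the range of the group. Of 27 groups of 4 libraries examined in this way 1 was picked out, and chance picks out about 1 in 20.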

How the results depend on the processing

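In fish and lard livers against control, Cyp2b13 kept its direction under every alternative run, and its call under all but leaving out control mouse 1120 or 1121. By setting, the counts of genes called were as follows, against 49 (fish against control), 65 (lard against control), 12 (fish against soy), 0 (lard against soy) and 26 (fish against lard) in the main test. The DESeq2 Wald test called 165, 274, 813, 151 and 164, with 4 of the 7 genes in each comparison with control. With the compared diets alone the counts were 78, 166, 1 (fish against soy) and 136 (fish against lard). Without soy mice 1073 and 1159 they were 137, 236, 0 and 98 in the same 4 comparisons. A minimum mean of 5 CPM left 29 genes in fish against control and 1 of the 7 in lard against control, where Cyp2a4 had an adjusted p of 0.051.

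With the library number as a replicate block the counts were 26, 39, 4 (fish against soy) and 13 (fish against lard), and 1 of the 7 was called in lard against control, with Cyp2a4 at an adjusted p of 0.0641. The labels do not say what the number marks, and libraries of the same number did not deviate together (r of -0.158 to 0.155 in liver, median -0.016), so it was not taken as a pairing. Under the block Cyp2b13 had an adjusted p of 0.0455 in fish and 0.0423 in lard livers.

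With single livers left out, the counts of genes called were 15 to 81 (fish against control), 12 to 85 (lard against control), 0 to 2092 (fish against soy), 0 to 780 (lard against soy) and 0 to 43 (fish against lard), and 0 to 1 and 0 to 2 of the 7 were called against control in fish and lard livers. The highest of these came without soy mouse 1065 in the comparisons of fish or lard with soy. Log2 fold changes that turned their sign when single livers were left out ranged for Cyp2a12 from -0.031 to 0.23 in soy, -0.055 to 0.21 in fish and -0.17 to 0.13 in lard livers against control. They ranged for Cyp2b10 from -0.40 to 0.93 in fish against control and -0.19 to 2.03 in lard against soy, and for Cyp2a4 from -0.45 to 0.28 in lard against soy. Between fish and lard livers they ranged from -0.052 to 0.11 for Cyp2a5, -0.0091 to 0.30 for Cyp2b9 and -0.36 to 0.67 for Cyp2b13. Without soy mice 1073 and 1159 the sign turned for Cyp2a12 (-0.18) and Cyp2b10 (-0.44) in soy against control, for Cyp2b10 in fish against soy (0.47) and for Cyp2a4 in lard against soy (0.80). The causes were not tested. Cyp2b10 rests on 2 to 143 reads per liver, and Cyp2b13 in control livers on 3 to 24.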
